A study of Chlorocebus sabaeus with 10 samples.

Results

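Cytokine signaling and NF-kB feedback genes were examined in liver biopsies of vervet monkeys fed a high fructose (HFr) or a chow diet. The group holds 10 genes chosen by their symbols, namely NFKBIA, TNFAIP3, SOCS3, STAT3, ICAM1, CCL2, IL1R1, IL6R, IL6ST and CXCL12, out of 27985 genes in the deposited transcript table. Each of the 10 symbols had 1 annotated transcript. The animals were 10 female Chlorocebus sabaeus, an Old World primate, and all of them were kept on chow before the study. Of these, 5 received the HFr diet and 5 stayed on chow for 6 weeks. Assignment to the diets was stratified to balance age and body weight. The paper lists a higher mean age for the HFr animals, without a significant difference. Each animal gave 1 flash-frozen biopsy and 1 polyadenylated RNA library, so the tissue is whole liver with all of its cell types. No animal carried a transgene, and no batch is named in the labels.

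NF-kB is a transcription factor that inflammatory signals such as interleukin 1 and tumor necrosis factor release from its inhibitor in the cytoplasm. It switches on chemokine and adhesion genes, and also NFKBIA and TNFAIP3, whose products shut the pathway down again. Interleukin 6 acts on hepatocytes through IL6R and the shared signaling chain IL6ST (gp130), which activates STAT3. STAT3 in turn drives the plasma proteins of the acute phase and SOCS3, the inhibitor that ends the signal.

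Values are given as normalized counts, the authors' estimated read counts per transcript expressed as CPM after TMM scaling, which evens out differences in library composition. The total was 2977282 to 4992505 estimated counts per animal, of which 34.7% to 73.6% fell on mitochondrial transcripts. Hepatocyte markers were abundant in every library, with 9 of 10 listed genes in the table and summed levels of 38781 to 60201 normalized counts on the HFr diet and 34041 to 66685 on chow. Because transcript lengths were not used here, levels are compared between animals and never between genes. In a bulk biopsy, fewer cells of a type and less RNA per cell cannot be told apart.

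The counts of 7 of the 10 genes were high enough to be tested, and none of the 7 differed between the diets after adjustment for all transcripts tested. Of these, 6 had a lower estimate on the HFr diet, STAT3 being the exception. CCL2 was the 1 gene with an unadjusted p under 0.05, and it was lower on the HFr diet. Over all 7948 tested transcripts, 4.29% had an unadjusted p under 0.05 in either direction and 2.23% had one with a lower level on the HFr diet, while 2.06% had one with a higher level, where the group had 0 genes. The adjusted p was under 0.05 for 0 of the 7 genes and for 0% of all tested transcripts with edgeR's quasi-likelihood test. With DESeq2 this was so for 0 of the 7 genes and for 2 of the 7948 transcripts. The adjusted p of each of the 7 genes was 0.9996 by edgeR. Their median log2 fold change was -0.08, beside -0.00069 over all tested transcripts. For all 10 genes the values of the diets overlapped, and separation without overlap was found for 0.541% of the tested transcripts.

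**Figure D1:**
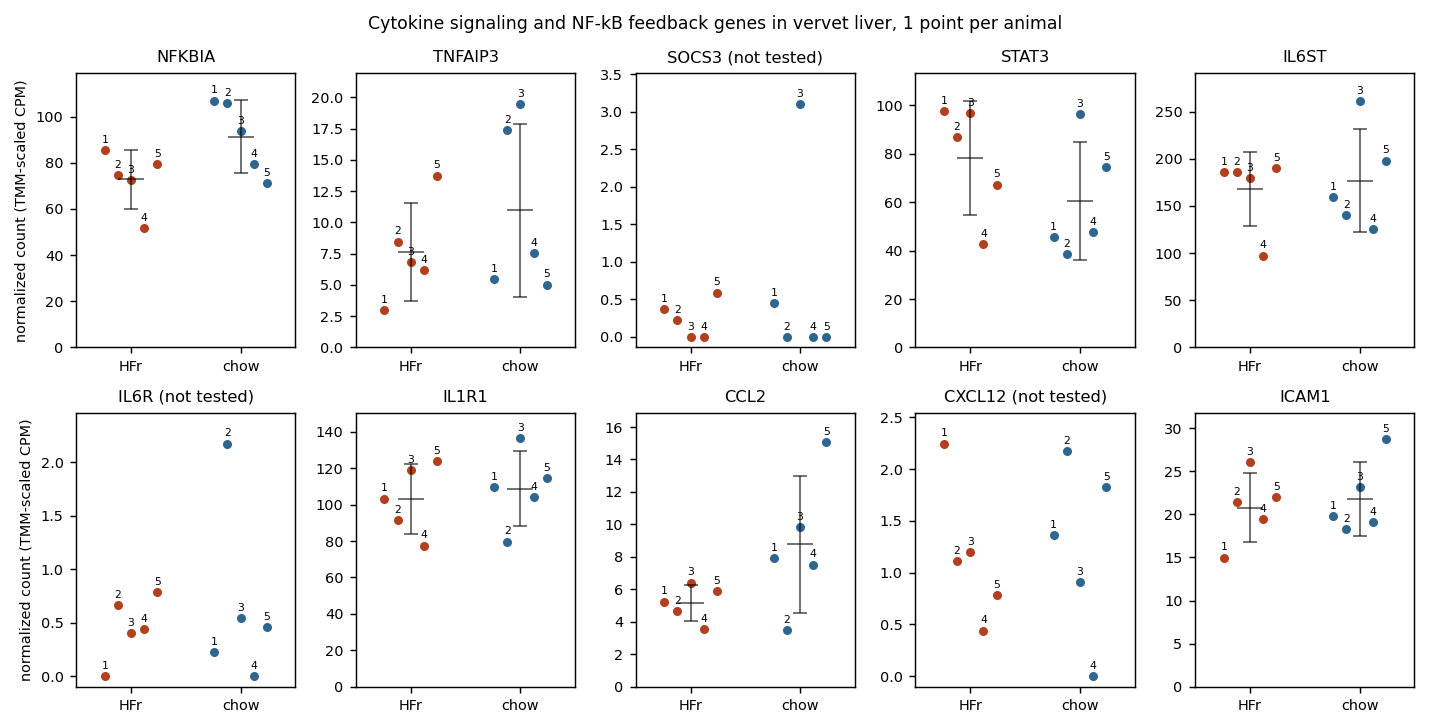
Normalized counts (TMM-scaled CPM, linear axis) of the 10 genes, 1 point per animal with its replicate number. Bars give the mean and SD of 5 animals for the 7 tested genes, and the 3 genes marked as not tested show points only. CCL2 lies at or below 6.41 in all HFr animals and at or above 7.53 in 4 of 5 chow animals.

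Among the feedback inhibitors, NFKBIA encodes IkB-alpha, the protein that holds NF-kB in the cytoplasm. The gene (ENSCSAG00000015526) lies on the minus strand of chromosome 24 of ChlSab1.1 from 12210281 to 12214854. Its normalized counts on the HFr diet were 85.3, 74.6, 72.5, 51.9 and 79.4 in replicates 1 to 5. On chow they were 106.9, 105.7, 93.6, 79.3 and 71.2. Chow replicates 1 to 3 stood above every HFr animal, and the chow mean exceeded each of the 5 HFr values, but the lowest 2 chow animals lay among the HFr values. The mean was 72.8 ± 12.7 normalized counts on the HFr diet and 91.4 ± 15.8 on chow (SD, n = 5 each), a difference somewhat larger than the SD of either diet. The log2 fold change was -0.33 (standard error [SE] 0.18, 95% interval from -0.73 to 0.06), with an unadjusted p of 0.0933 by edgeR. The two-sided exact permutation test over all assignments of 5 of the 10 animals to a diet gave p = 0.103. Among the 23 alternative analyses the unadjusted p was under 0.05 in 1, without chow replicate 5, where it was 0.0490.

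TNFAIP3 encodes A20, a ubiquitin-editing enzyme that ends signaling from the tumor necrosis factor and interleukin 1 receptors. The gene (ENSCSAG00000016944) lies on the minus strand of chromosome 13 from 35537102 to 35549197. HFr replicates 1 to 5 had 2.99, 8.47, 6.81, 6.18 and 13.8 normalized counts. The chow animals had 5.45, 17.4, 19.5, 7.53 and 5.02. TNFAIP3 varied more between animals than any other tested gene of the group, 6.51-fold from the lowest to the highest, and its high values came from both diets. HFr replicate 5 and chow replicates 2 and 3 reached at least 13.8 normalized counts, and the next animal stood at 8.47. The log2 fold change was -0.54 (SE 0.43, 95% interval from -1.45 to 0.38, unadjusted p = 0.228 by edgeR). It was -0.22 without chow replicate 3 and -0.87 without HFr replicate 5. These counts were low, from 8 to 107 estimated counts per animal.

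TNFAIP3 was higher in the animals with a lower mitochondrial share of the counts. Over all 10 animals, on log2(normalized count + 1), Pearson's r was -0.73 (permutation p = 0.0176). The relation did not pass adjustment over the 7 tested genes (adjusted permutation p = 0.123). Spearman's rho was -0.61 (permutation p = 0.0660, adjusted p = 0.337). The share fell into 2 separate sets of animals, 4 between 34.7% and 44.0% and 6 between 57.1% and 73.6%. The values over all 10 therefore include the contrast between the sets. TNFAIP3 was between 8.47 and 19.5 normalized counts in the first set and between 2.99 and 7.53 in the second, without overlap. How many of all transcripts separate these sets in the same way was not determined. Within the 6 animals of the second set, taken after the values were seen, Pearson's r was 0.50 (exact permutation p = 0.329) and Spearman's rho 0.54 (exact permutation p = 0.297). The sign is opposite to that over all 10, and so few animals over a narrower range cannot decide on a relation within this set. With the mitochondrial percent as a covariate the log2 fold change of TNFAIP3 was -0.41, with an unadjusted p of 0.213. The part of this share in the differences between animals was not tested further.

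Some immediate early genes, which are transcribed within minutes of a stimulus, had the same 3 animals at the top as TNFAIP3. JUN, a subunit of the AP-1 transcription factor, was at 17.1 normalized counts in HFr replicate 5, 23.5 in chow replicate 2 and 28.4 in chow replicate 3, and at most 5.45 in the other animals. The same 3 animals were the highest for EGR1, a zinc finger transcription factor, and for ZFP36, which destabilizes cytokine mRNAs. These animals were the top 3 for 3 of the 10 tested immediate early genes. Of these 10 genes, 9 had a lower estimate on the HFr diet, with a median log2 fold change of -0.88, and 2 had an unadjusted p under 0.05, or 20%, beside 2.23% of all transcripts in that direction. The 2 genes were MYC, a growth-promoting transcription factor (log2 fold change -1.04, SE 0.43), and JUND, another AP-1 subunit (-1.11, SE 0.50). JUND was at -0.60 without chow replicate 3 and at -0.57 with limma at a pseudocount of 1, and its unadjusted p was 0.05 or more in 9 of 22 alternatives. For MYC this was so in 3 of 23, each with 1 animal left out (chow replicates 3 and 5 and HFr replicate 5). Without chow replicate 3, the highest animal for JUN, ZFP36 and TNFAIP3, 8 of the 10 were lower and 0 had an unadjusted p under 0.05 by edgeR. All 10 had an adjusted p above 0.05. All lists here were chosen with earlier results of these data known, so their shares beside those of all transcripts are descriptions only.

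**Figure D2:**
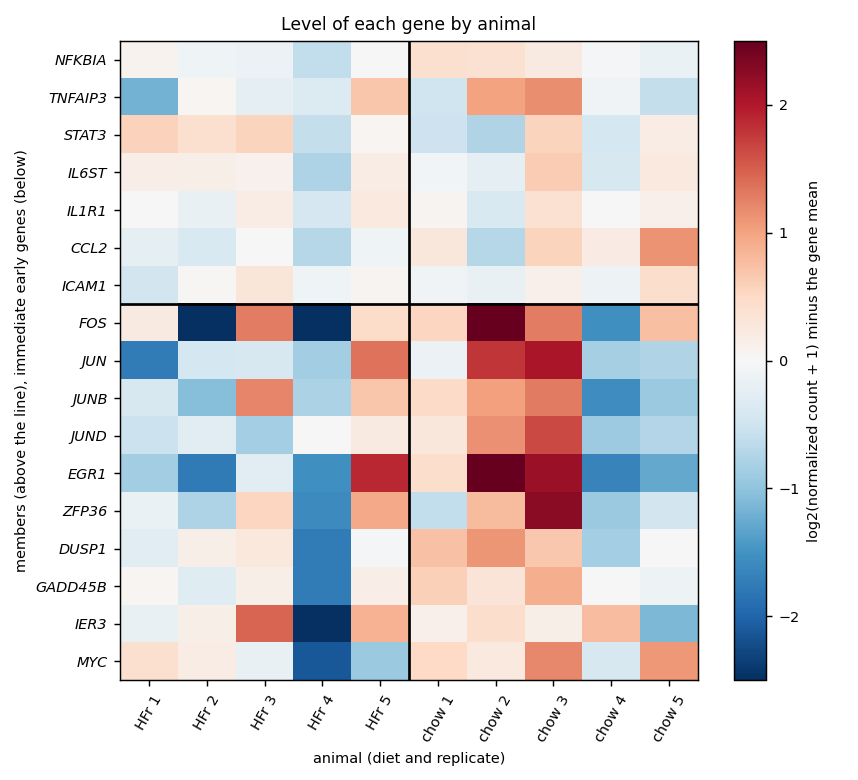
Level of the 7 tested genes (above the line) and of 10 immediate early genes (below) in each animal, as log2(normalized count + 1) minus the mean of the gene. The color scale ends at 2.5 in both directions. HFr replicate 5 and chow replicates 2 and 3 are red for TNFAIP3, JUN and EGR1, and HFr replicate 4 is blue for most rows.

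SOCS3 encodes the inhibitor that blocks IL6ST and the JAK kinases bound to it. Its annotated transcript (ENSCSAG00000019044), on the minus strand of chromosome 16 from 70354746 to 70355423, spans 678 bases, the shortest span of the 10 genes. SOCS3 had 1, 1, 0, 0 and 3 estimated counts in HFr replicates 1 to 5 and 2, 0, 17, 0 and 0 in the chow animals. Chow replicate 3 thus held 17 of the 24 counts, or 70.8%. The gene was too low to be tested. A count of 0 allows a level of up to 3 counts, which is 0.546 to 1.51 normalized counts depending on the library, so no diet difference was detectable at this depth.

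STAT3 was the tested gene with the higher estimate on the HFr diet. The gene (ENSCSAG00000003215) lies on the plus strand of chromosome 16 from 63922862 to 63957984. HFr replicates 1 to 5 had 97.7, 86.9, 96.6, 42.6 and 67.2 normalized counts, and the chow animals had 45.4, 38.5, 96.2, 47.7 and 74.4. HFr replicates 1, 2 and 3 and chow replicate 3 were the highest, while HFr replicate 4 lay among the low values of chow replicates 1, 2 and 4. The means were 78.2 ± 23.4 and 60.4 ± 24.2 normalized counts (SD, n = 5 each), a difference smaller than the SD of either diet. STAT3 had a log2 fold change of 0.37 (SE 0.28, 95% interval from -0.24 to 0.97), and the unadjusted p was 0.216 by edgeR. Single animals moved this value. With 1 animal left out it ran from 0.24, without chow replicate 2 (unadjusted p = 0.419 by edgeR), to 0.60, without chow replicate 3 (unadjusted p = 0.0429 by edgeR).

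IL6ST, on the minus strand of chromosome 4 from 52174312 to 52214584 (ENSCSAG00000016226), is the signal-transducing chain shared by the receptors of the interleukin 6 family. The normalized counts were 186.0, 185.8, 179.5, 97.3 and 190.4 in HFr replicates 1 to 5. They were 158.9, 139.9, 260.9, 125.5 and 198.1 in the chow animals. The HFr animals formed a tight set apart from replicate 4, which was the lowest of all 10, while chow replicate 3 was the highest. IL6ST did not differ between the diets beyond this spread, with a log2 fold change of -0.08 (SE 0.24, unadjusted p = 0.760 by edgeR). The 95% interval ran from 0.662-fold to 1.36-fold of the chow level. The direction rested on single animals, since the log2 fold change was 0.06 without HFr replicate 4 and 0.11 without chow replicate 3.

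IL6R, the chain that binds interleukin 6 itself, had few reads in these libraries. The annotated transcript (ENSCSAG00000001948) lies on the minus strand of chromosome 20 from 9361152 to 9396610. It had 0, 3, 1, 2 and 4 estimated counts in HFr replicates 1 to 5 and 1, 10, 3, 0 and 1 on chow. These values do not allow a comparison, and chow replicate 2 alone held 10 of the 15 counts on chow. IL6, the ligand, was listed at 0 in all 10 libraries, and so was SOCS1, a further inhibitor of the JAK kinases.

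Other components of this pathway were read from a list of 28 genes of the interleukin 6 family and JAK-STAT signaling, of which 16 were tested. Of these, 6 had a higher and 10 a lower estimate on the HFr diet, with a median log2 fold change of -0.12. An unadjusted p under 0.05 was found for 2, both lower, or 12.5%, beside 2.23% of all transcripts in that direction, and none passed adjustment. They were SOCS2 and CISH, which encode inhibitors best known as targets of growth hormone signaling through STAT5. SOCS2 had 39.7, 29.0, 18.4, 16.8 and 5.70 normalized counts in HFr replicates 1 to 5 and 89.9, 36.1, 43.5, 19.1 and 77.6 on chow. Chow replicates 1, 3 and 5 stood above every HFr animal. On the log2 scale SOCS2 differed by -1.30 (SE 0.46, unadjusted p = 0.0127 and adjusted p = 0.9996 by edgeR), and the two-sided exact permutation p was 0.0556. Its unadjusted p stayed under 0.05 in all 23 alternatives. CISH had 1.497, 2.45, 2.81, 3.97 and 8.25 normalized counts on the HFr diet and 15.0, 13.9, 10.7, 4.02 and 2.28 on chow. Chow replicates 1 to 3 were the highest for CISH, and chow replicate 5, which was high for SOCS2, was the lowest chow animal here. On that scale CISH differed by -1.27 (SE 0.49, unadjusted p = 0.0208 by edgeR), and its unadjusted p was 0.05 or more in 4 of 22 alternatives, among them the replicate block (0.0761) and the analyses without chow replicate 1 (0.0629) or chow replicate 2 (0.0550). For the kinases that IL6ST uses, the differences were smaller than their SE, at -0.09 for JAK1 (SE 0.27) and -0.18 for JAK2 (SE 0.22) on the log2 scale.

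The plasma proteins that hepatocytes make in response to interleukin 6 form the output of the pathway. Of 16 listed genes, 13 were tested and 11 had a higher estimate on the HFr diet, with a median log2 fold change of 0.17, but 0 had an unadjusted p under 0.05 by edgeR. SAA1, SAA2 and HP were not in the table. The hepatocyte markers leaned the same way, with 7 of 9 tested genes higher and a median log2 fold change of 0.15. Among the 13 plasma protein genes the smallest p belonged to LBP, the lipopolysaccharide binding protein gene (log2 fold change 0.63, SE 0.59). That value was 0.079 without HFr replicate 5 and 1.07 without chow replicate 3. After the values had been seen, each of the 7 tested genes was correlated with each of these 13 genes across the 10 animals, on log2(normalized count + 1), which makes 91 relations. The adjusted p of Pearson's r was under 0.05 for 1 of them, IL6ST with FGG, the fibrinogen gamma chain gene. For this pair r was 0.89 (permutation p = 0.000380, adjusted p = 0.0346) and Spearman's rho was 0.84 (permutation p = 0.00386, adjusted p = 0.140). Without HFr replicate 4 and chow replicate 4, the animals farthest from the median IL6ST level, r was 0.86. With each diet's mean removed, r was 0.92, and the permutation within diets gave an adjusted p of 0.175. Across the 13 genes the median r was 0.61 for STAT3, 0.48 for IL6ST, 0.47 for IL1R1, 0.28 for TNFAIP3, 0.15 for CCL2, 0.082 for ICAM1 and 0.018 for NFKBIA. STAT3 with FGG had r = 0.87 (permutation p = 0.00219, adjusted p = 0.0931). The STAT3 values form 2 separate sets of animals, so its r include the contrast between these sets. All of these correlations share the libraries and their scaling factors.

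IL1R1, the signaling receptor of interleukin 1, lies on the plus strand of chromosome 14 from 5781479 to 5855942 (ENSCSAG00000017139). It had 103.3, 91.3, 119.0, 77.5 and 124.0 normalized counts in HFr replicates 1 to 5 and 109.4, 79.6, 136.4, 103.9 and 114.6 on chow. The diets covered nearly the same range, and this was the tested gene with the smallest spread, 1.76-fold from the lowest to the highest animal. The log2 fold change was -0.08 (SE 0.19, unadjusted p = 0.685 by edgeR), and the 95% interval ran from 0.712-fold to 1.26-fold of the chow level. IL1RAP, its co-receptor, had a log2 fold change of -0.27 (SE 0.42), which was -0.84 without HFr replicate 5 (unadjusted p = 0.0326 by edgeR) and 0.11 without chow replicate 3. IL1R2, a decoy receptor that binds interleukin 1 without signaling, had the smallest p of the 5 tested genes of the interleukin 1 list, at 0.28 (SE 0.20, unadjusted p = 0.176 by edgeR). None of these 5 genes had an unadjusted p under 0.05.

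CCL2 encodes a chemokine that draws monocytes into tissue. The gene (ENSCSAG00000006354) lies on the plus strand of chromosome 16 from 27763555 to 27765416. HFr replicates 1 to 5 had 5.24, 4.68, 6.41, 3.53 and 5.90 normalized counts. The chow animals had 7.94, 3.48, 9.84, 7.53 and 15.1. The highest HFr animal stood below 4 of the 5 chow animals, and chow replicate 2 was the lowest of all 10. The means were 5.15 ± 1.12 and 8.77 ± 4.21 normalized counts (SD, n = 5 each), from 14 to 54 estimated counts per animal. CCL2 had a log2 fold change of -0.75 (SE 0.34, 95% interval from -1.47 to -0.03), which is 0.596-fold of the chow level, with an unadjusted p of 0.0433 and an adjusted p of 0.9996 by edgeR. The two-sided exact permutation test gave p = 0.127. Over 23 alternatives the unadjusted p was under 0.05 in 13 and the log2 fold change lay between -0.97, without chow replicate 2 (unadjusted p = 0.00446), and -0.50, without chow replicate 5 (unadjusted p = 0.138). The unadjusted p was also 0.05 or more without HFr replicates 1, 2 or 4 and without chow replicates 1 or 3, each left out alone.

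Macrophages and stellate cells are known sources of CCL2, and their markers were read beside it. Of the macrophage markers, 8 were tested, 7 had a higher estimate on the HFr diet, and their summed level ranged from 113 to 273 normalized counts on the HFr diet and from 72.4 to 280 on chow, with none of the 10 in the table at 0 throughout. Of the stellate cell and fibroblast markers, 8 were tested and 6 had a lower estimate, with sums of 268 to 500 on the HFr diet and 229 to 934 on chow, and LRAT at 0 in all animals. ACTA2, a contractile marker of that list, had a log2 fold change of -1.57 (SE 0.49, unadjusted p = 0.00646 by edgeR). TAGLN, a further contractile marker, had -0.69 (SE 0.24, unadjusted p = 0.0122 by edgeR). These 2 were 25% of the 8 tested markers of that list, beside 2.23% of all transcripts in that direction, and neither passed adjustment. The part of these cell types in the CCL2 values was not tested.

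CXCL12, the ligand of CXCR4 that keeps lymphocytes and progenitor cells in place, was too low to be tested. It lies on the minus strand of chromosome 9 from 40011439 to 40020494 (ENSCSAG00000010891). Its estimated counts were 6, 5, 3, 2 and 4 in HFr replicates 1 to 5 and 6, 10, 5, 0 and 4 on chow. The sums of 20 and 25 counts are close to each other, and no difference was detectable at this depth. Its receptor CXCR4 had a log2 fold change of 0.01 (SE 0.52), and the direction flipped in several alternatives, for example to -0.12 under the replicate block and to -0.33 without HFr replicate 3. The second receptor, ACKR3, was too low to be tested, with at most 7 estimated counts per animal.

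ICAM1 is the adhesion molecule on endothelium and hepatocytes that leukocyte integrins bind, and a classical NF-kB target. It lies on the plus strand of chromosome 6 from 9322550 to 9338263 (ENSCSAG00000007356). Its normalized counts were 15.0, 21.4, 26.0, 19.4 and 22.0 in HFr replicates 1 to 5. On chow they were 19.7, 18.3, 23.1, 19.1 and 28.8. ICAM1 overlapped almost fully between the diets, with a log2 fold change of -0.06 (SE 0.19, unadjusted p = 0.740 by edgeR) and a 95% interval from 0.723-fold to 1.27-fold of the chow level. Its direction turned to 0.02 without HFr replicate 1 and to 0.04 without chow replicate 5.

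Of 28 further chemokines, receptors and adhesion partners, 13 were tested, 6 with a higher and 7 with a lower estimate on the HFr diet. An unadjusted p under 0.05 was found for 2, or 15.4%, 1 in each direction, beside 4.29% of all transcripts. CXCL9, an interferon-induced chemokine, had 12.7, 6.24, 19.2, 5.96 and 3.34 normalized counts in HFr replicates 1 to 5 and 1.59, 4.79, 1.64, 4.02 and 6.85 on chow. Only HFr replicates 1 and 3 stood above every chow animal. For CXCL9 the log2 difference was 1.36 (SE 0.51), with an unadjusted p of 0.0181 and an adjusted p of 0.9996 by edgeR. CCL19, which guides lymphocytes and dendritic cells, had a log2 fold change of -1.12 (SE 0.50, unadjusted p = 0.0426 and adjusted p = 0.9996 by edgeR). The CCL19 value was -0.59 without chow replicate 5 (unadjusted p = 0.193 by edgeR), and its unadjusted p was 0.05 or more in 10 of 22 alternatives. For CXCL9 this was so in 2 of 22, among them without HFr replicate 3, where the log2 fold change was 0.94. CXCL8, CCR2 and SELE were at 0 in all 10 libraries.

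No component of the core NF-kB pathway passed the test. Of 41 listed components 27 were tested, 13 with a higher and 14 with a lower estimate, with a median log2 fold change of -0.00082, and 0 had an unadjusted p under 0.05 by edgeR. RELA, the transactivating subunit that IkB-alpha binds, had 29.9 ± 8.99 normalized counts on the HFr diet and 29.6 ± 3.92 on chow (SD, n = 5 each). NFKB1, its p50 partner, had 8.97 ± 0.415 and 9.37 ± 2.81 (SD, n = 5 each). MYD88, the adaptor of the interleukin 1 and Toll-like receptors, had the smallest p of the list, with a log2 fold change of 0.42 (SE 0.22, unadjusted p = 0.0813 by edgeR). That p was under 0.05 in 2 of 23 alternatives, without HFr replicate 3 or chow replicate 4.

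**Figure D3:**
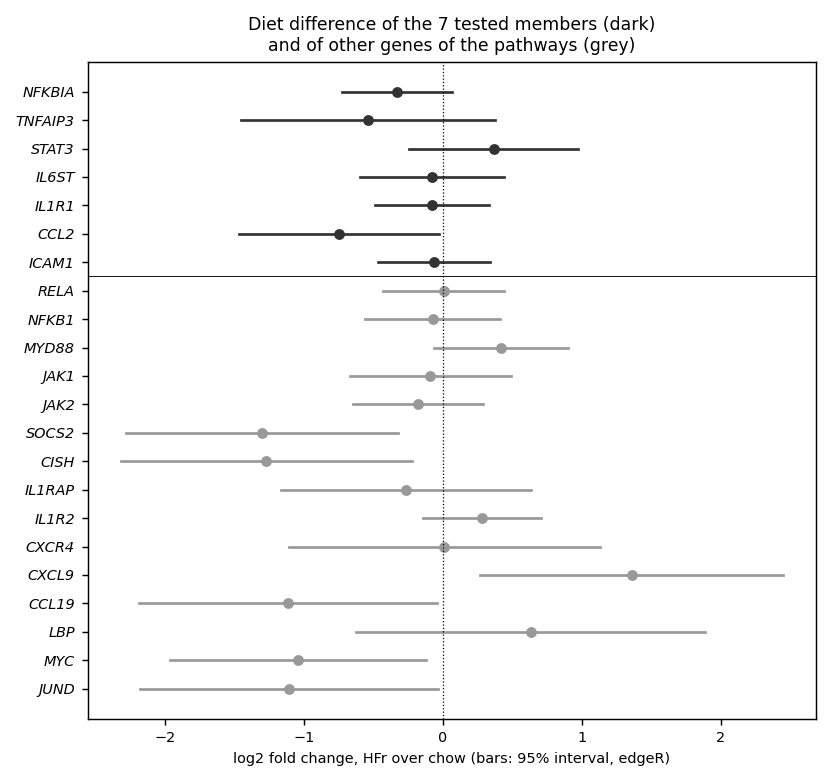
Log2 fold change of the HFr over the chow diet (horizontal axis), with its 95% interval by edgeR. The 7 tested genes are dark, above the line, and 15 further genes of the lists read here are grey. Grey genes are direct partners of the group's genes, or had an unadjusted p under 0.05 by edgeR or the smallest p of their list. The interval of CCL2, from -1.47 to -0.03, is the only one of the 7 that leaves out 0, and none of the 22 genes passed adjustment over all transcripts.

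Whether the genes varied together between animals was examined over the 21 pairs of the 7 tested genes, on log2(normalized count + 1). Pearson's r was positive for 17 pairs, with a median of 0.33. An unadjusted permutation p under 0.05 was found for 3 pairs, and 0 pairs passed adjustment over the 21. With library size only in place of TMM, a scaling tried after the values were seen, all 21 were positive and 11 passed. None passed when mitochondrial transcripts were also left out of the library size, where the smallest adjusted p of Pearson's r by permutation was 0.0900. With TMM and a pseudocount of 0.1 it was 0.0636. In the reported analysis CCL2 and IL1R1 had r = 0.74 (permutation p = 0.0138, adjusted p = 0.0963) and rho = 0.76 (permutation p = 0.0148, adjusted p = 0.213). Without chow replicates 2 and 5, the animals farthest from the median CCL2 level, r was 0.83. IL1R1 and IL6ST had r = 0.78 (permutation p = 0.00673, adjusted p = 0.0707) and rho = 0.72 (permutation p = 0.0232, adjusted p = 0.213). Without HFr replicate 4 and chow replicate 2, r was 0.57, so that relation rested in part on these animals.

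The third pair was STAT3 with IL6ST. Over all 10 animals r was 0.79 (permutation p = 0.00307, adjusted p = 0.0645) and rho 0.65 (permutation p = 0.0492, adjusted p = 0.255). STAT3 fell into 2 separate sets of animals, 4 between 38.5 and 47.7 and 6 between 67.2 and 97.7 normalized counts. The values over all 10 therefore include the contrast between the sets. IL6ST was between 97.3 and 158.9 normalized counts in the 4 animals and between 179.5 and 260.9 in the 6, without overlap. The share of all transcripts that also separate these 2 sets was not determined. The 4 animals were HFr replicate 4 and chow replicates 1, 2 and 4. The 6 were the other HFr animals with chow replicates 3 and 5. Within the 6 animals, a set taken after the values were seen, r was 0.19 (exact permutation p = 0.835) and rho -0.37 (exact permutation p = 0.497). So few animals over a narrower range cannot decide whether the relation holds inside that set. Leaving out chow replicate 2 and HFr replicate 4, the animals farthest from the median STAT3 level, gave r = 0.72. With each diet's mean removed, r was 0.90, and the permutation within diets gave an adjusted p of 0.0942. Both values still take in animals of both sets. NFKBIA and TNFAIP3, both feedback genes of NF-kB, had r = 0.33 (permutation p = 0.351, adjusted p = 0.669) and rho = 0.30 (permutation p = 0.406, adjusted p = 0.711). HFr replicate 4 was the lowest HFr animal for 5 of the 7 tested genes, and chow replicate 3 was the highest of all animals for 3.

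**Figure D4:**
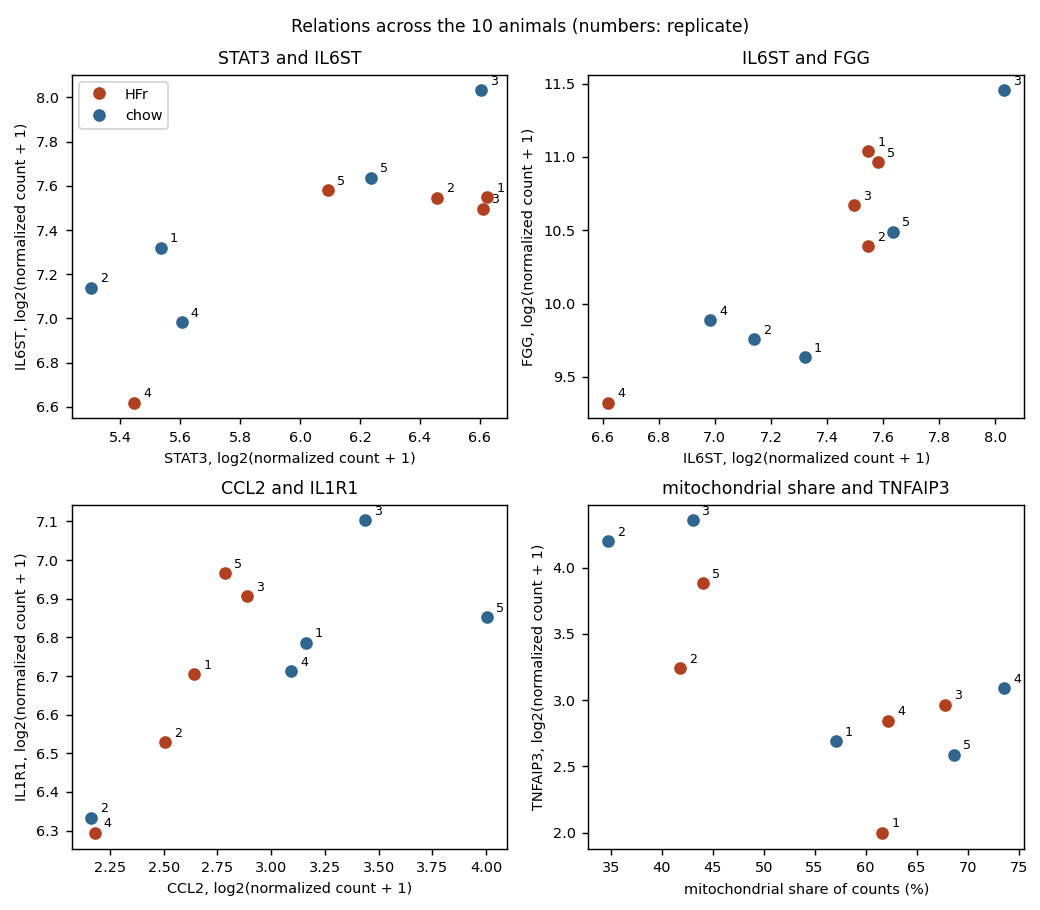
Relations across the 10 animals, with points numbered by replicate and colored by diet. Axes are log2(normalized count + 1), and in the last panel the horizontal axis is the mitochondrial share of the counts in percent. STAT3 and the mitochondrial share each fall into 2 sets of 4 and 6 animals, and IL6ST and FGG run from HFr replicate 4 at the low end to chow replicate 3 at the high end.

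For each of the 7 tested genes the 2 most similar transcripts of other genes were taken by Pearson's r over the 10 animals among 7947 transcripts, as a description. As the top of 7947 values, these r are high by selection. For TNFAIP3 the transcripts were JUN (r = 0.95) and ACTB (r = 0.95), and for NFKBIA they were UBE2G1 (r = 0.94) and GADD45B (r = 0.88). TNFAIP3 and JUN share their 3 highest animals, so their r includes the contrast of these animals with the rest. STAT3 was most like FAM162A (r = 0.94) and SEC23A (r = 0.93), values that include the contrast between its 2 sets. IL6ST was most like ETS2 (r = 0.93) and INSIG1 (r = 0.93). For CCL2 they were NDUFAF2 (r = 0.96) and EIF1AX (r = 0.94), and for ICAM1 RAB33B (r = 0.92) and GMCL1 (r = 0.92). IL1R1 was most like an unnamed gene, ENSCSAG00000018568 (r = 0.94), and TOP1 (r = 0.92). JUN and GADD45B are immediate early genes of the list above, and no other member of the group was among the 2 most similar transcripts of these 7.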

How the data were processed

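RNA-Seq libraries (stranded, polyadenylated RNA, paired-end reads of 100 bases) of 5 HFr and 5 chow animals were used. The authors aligned the reads to ChlSab1.1 with the Ensembl release 93 gene model and quantified each transcript in Partek Flow by expectation-maximization, and the deposited estimated counts are not normalized. Of the deposited values above 0, 95.3% were whole. STAR 2.5.3a is in the submitters' processing notes. The deposited normalized table was not used here. Coordinates count from 1, and the listed stop was taken as excluded.

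Estimated counts were rounded, low transcripts were removed by filterByExpr (10 counts as its minimum, 15 in total), and the rest were tested with edgeR 4.0.16 in R 4.3.3 (trimmed mean of M values scaling, TMM, and quasi-likelihood test, diet as the only term), with limma 3.58.1 and DESeq2 1.42.0 as alternatives. The study used an equal-variance test on TMM values, and the count model was used here because of the low counts. Adjustment followed Benjamini and Hochberg across the 7948 transcripts tested, with a threshold of 0.05. The typical variation between animals of a diet was 29.0% (biological coefficient of variation). Standard errors are the log2 fold change divided by the root of F, and 95% intervals use the degrees of freedom of that test. TMM factors ranged from 0.608 to 1.48. Limits of a count of 0 cover counting error only. The code was tested on simulated data.

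Normalized counts are estimated counts over the TMM-scaled library size. Correlations used a pseudocount of 1 and permutations of the animals. The members and all lists were chosen with earlier results of these data known. The genes named are the members, direct partners (RELA, NFKB1, JAK1, JAK2, IL1RAP, CXCR4, ACKR3), list genes with an unadjusted p under 0.05 or else the smallest p, and the 2 most similar transcripts. FGG, JUN, EGR1, ZFP36, ACTA2, TAGLN and the genes named at 0 were picked after their values were seen. Lists for cholangiocytes, endothelium, lymphocytes, neutrophils, red blood cells and skeletal muscle were read as well. No sequences were used.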

Additional observations from a re-analysis of the deposited data

Results flagged for a closer look

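In 3 of 20 groups of 5 animals, 1 animal lay far from the others by Dixon's criterion, which flags about 1 in 20 groups by chance. IL6ST was at 97.3 normalized counts in HFr replicate 4, with the other HFr animals between 179.5 and 190.4. SOCS3 was at 3.10 normalized counts in chow replicate 3 (17 estimated counts), with the other chow animals at or below 0.454. IL6R was at 2.18 normalized counts in chow replicate 2 (10 estimated counts), with the other chow animals at or below 0.546. The SOCS3 and IL6R values rest on counts too low to be tested.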

How the results depend on the processing

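The 23 alternatives kept the adjusted p of the 7 tested genes above 0.05. The number with an unadjusted p under 0.05 was 1 in the reported analysis and in 15 alternatives. It was 0 with library size only, with the replicate block and with limma at a pseudocount of 1 or 0.1, and from 0 to 1 when 1 animal was left out. TNFAIP3 was not tested where every animal had to have at least 10 counts, which leaves it 22 alternatives. The 1 gene was STAT3 without chow replicate 3, NFKBIA without chow replicate 5 and CCL2 otherwise. Of the tested genes, the signs of NFKBIA, TNFAIP3, STAT3 and CCL2 held in all alternatives. With 1 animal left out, the log2 fold change ran from -0.16 to 0.042 for ICAM1, from -0.17 to 0.016 for IL1R1 and from -0.18 to 0.11 for IL6ST. It ran from -0.16 to 0.10 for RELA, from -0.18 to 0.019 for NFKB1, from -0.23 to 0.021 for JAK1, from -0.84 to 0.11 for IL1RAP and from -0.33 to 0.33 for CXCR4. RELA also turned to -0.027 with library size only, to -0.023 under the replicate block, and to -0.024 and -0.026 with limma at a pseudocount of 1 and 0.1. CXCR4 turned to -0.12, -0.25 and -0.47 in the last 3 of these. The cause was not tested.

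Of the 21 pairs, 11 passed adjustment with library size only, a scaling added after the values were seen, in which all 21 r were positive. None passed with mitochondrial transcripts left out of the library size, with a pseudocount of 0.1 or with each diet's mean removed. From 0 to 2 passed with 1 animal left out, the 2 being IL1R1 and STAT3 with IL6ST, without chow replicate 4. Over all transcripts, 341 had an unadjusted p under 0.05, against 124 with library size only and 756 of 16066 without a filter on low counts. Without that filter SOCS3, IL6R and CXCL12 had log2 fold changes of -1.66, -0.58 and -0.26, and unadjusted p-values by edgeR of 0.114, 0.465 and 0.670. The replicate numbers did not pair the animals: same-numbered animals correlated between -0.29 and 0.10 in their deviations from the diet means, 1 of 10 animals was closest to its own number, and the block gave 271 transcripts. Low counts limit CXCL12, IL6R and SOCS3 most, with at most 17 estimated counts per animal, and the reason for these low counts was not tested.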

Other observations

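Among other cell types, the 9 tested endothelial markers had 5 higher and 4 lower estimates on the HFr diet. Their sums were 352 to 466 normalized counts on the HFr diet and 265 to 458 on chow. By edgeR 1 had an unadjusted p under 0.05, KDR (log2 fold change 0.57, SE 0.19), or 11.1%, beside 2.06% of all transcripts in that direction. KDR did not pass adjustment. Lymphocyte markers summed to 41.9 to 74.9 normalized counts on the HFr diet and 36.3 to 62.1 on chow. Neutrophil markers were low, at 4.46 to 24.4 and 5.52 to 57.4 normalized counts, with S100A12 and ELANE at 0 in all libraries. Cholangiocyte markers summed to 5.96 to 28.5 and 10.04 to 32.7 normalized counts. Red blood cell markers summed to 100.3 to 333 on the HFr diet and 60.7 to 343 on chow, and skeletal muscle markers to at most 2.004 and 2.72.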
